A study of Rattus norvegicus with 8 samples.

Results

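Glycolysis and hypoxia-responsive transcripts were followed through 38 genes in rat hippocampal neuronal cultures, given either PAM, a compound that enhances NMDA receptor responses from an allosteric site, or vehicle. The genes were chosen by symbol for their role in glycolysis or in the response to low oxygen, and all 38 had a row among the 32623 annotated genes. Earlier results of these data were known when they were chosen. Counts and medians over the list are therefore descriptions, and no test was made over it. They comprise 17 glycolytic enzymes, 4 carriers of glucose and lactate, 3 regulatory kinases, 12 targets of hypoxia-inducible factor (HIF) outside glycolysis and 2 HIF alpha subunits. The cultures were wild type, of rat strain SD and 18 days in vitro, and polyadenylated RNA was sequenced from 4 PAM and 4 vehicle libraries. Which compound was used, at what dose and for how long is not given in the labels.

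Glycolysis splits glucose into pyruvate in the cytosol, and lactate dehydrogenase converts pyruvate to lactate and back. HIF is a transcription factor made of an oxygen-regulated alpha subunit and a constitutive beta subunit. Prolyl hydroxylases mark the alpha subunit for destruction when oxygen is plentiful; when they are inactive, HIF binds a short core motif in the control regions of its targets, which include most glycolytic enzymes, the glucose transporter Slc2a1 and the growth factor Vegfa. In brain, neurons and astrocytes divide the handling of glucose and lactate and differ in the isoenzymes they use.

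Libraries held 2960406 to 4389430 counts, and the 38 genes took 2.26% to 2.65% of the counts in PAM libraries, against 2.88% to 3.09% in vehicle libraries. The replicates are not stated to be separate cultures, so p-values measure the spread between these libraries, which may be technical. Per doubling of exonic length, the log2 level against the mean library changed by -0.0853 in PAM 3 and -0.132 in PAM 4, and by 0.00524 to 0.0627 in the other 6 libraries. Neuron markers fell in 4 of 9 tested genes, against 9.89% of all tested genes. Their summed level was 3393 to 4098 CPM (counts scaled to a common library size) in PAM libraries and 4720 to 5342 CPM in vehicle libraries. Map2, Slc17a6, Gad1, Gad2 and Stmn2 did not pass. Astrocyte markers rose in 4 of 9, against 9.00% of all tested genes, summing to 7780 to 9545 CPM in PAM libraries and 5306 to 5548 CPM in vehicle libraries. Much of this sum was Gfap, which averaged 4622 CPM with PAM and 2807 CPM with vehicle. Aldh1l1, Slc1a2, Slc1a3, Sox9 and Fgfr3 did not pass and had overlapping groups. No marker with a row in these 2 lists was at 0 in all libraries. Oligodendrocyte lineage markers rose in 5 of 10 tested genes and fell in 1, with a median log2 fold change of 0.59. Ependymal and choroid plexus markers rose in 5 of 5 tested genes, with a median of 1.88, beside 0.38 for the astrocyte markers. In such bulk samples, a change in the number of cells of a type and a change in RNA per cell cannot be told apart.

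Most members were lower in PAM libraries. Of the 37 genes that could be tested, 20 fell and 2 rose (edgeR's quasi-likelihood test with Benjamini-Hochberg adjustment over all genes, adjusted p under 0.05). Among all 11740 tested genes 18.9% passed, 9.89% in the downward and 9.00% in the upward direction. The hexokinase gene Hk2 showed the largest fall of the members, to 0.399 of its vehicle level. The aldolase gene Aldoc and the HIF alpha subunit gene Epas1 were the 2 that rose. The CPM of PAM and vehicle libraries did not overlap for 24 of the 37 members, against 22.3% of all tested genes. The median log2 fold change of the members was -0.45, beside 0.02 over all tested genes. The neuron markers given above were lower and the astrocyte markers higher in the same PAM libraries, and the part of cell types in these counts was not tested. Pfkfb4, with 0 to 3 counts in each library, was too low to test. In the authors' deposited table the same 22 genes had an adjusted p under 0.05 and the same directions, where 17.4% of all genes passed.

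**Figure D1:**
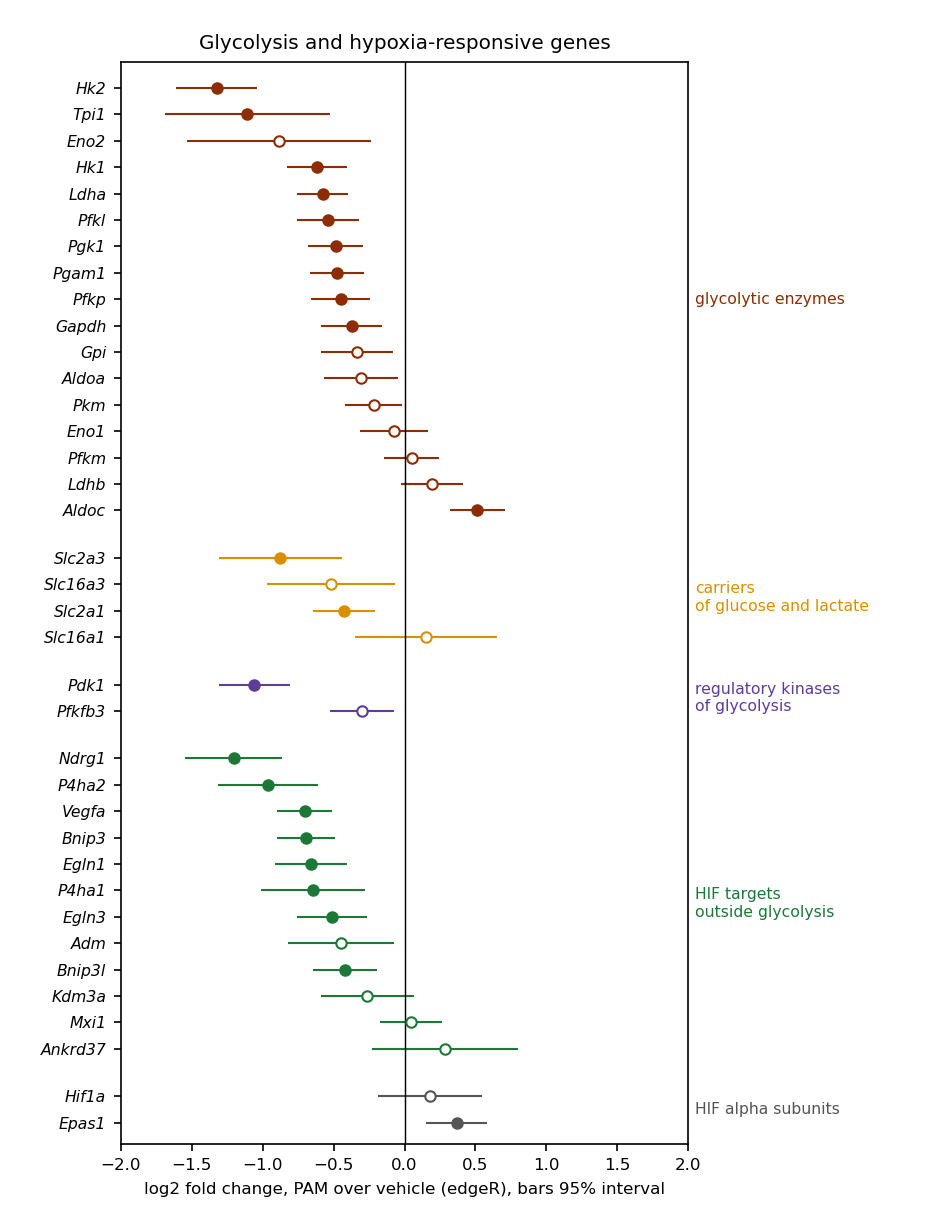
Log2 fold change of the 37 tested members, PAM over vehicle, by role, with 95% intervals by a normal approximation as bars. Filled points passed edgeR at an adjusted p under 0.05, of which 20 lie left of 0 and 2, Aldoc and Epas1, lie right of it.

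The promoters of 5 members that changed are shown because each holds the HIF core motif, searched as ACGTG and GCGTG on both strands, within 250 bases before to 50 bases after the start. The sequences are from RefSeq on build GRCr8, 5′ to 3′ on the strand of the gene, with the motif in capitals, also where it stands in reverse complement. The motif ACGTG also lies within CACGTG, the E-box bound by other factors, which is present in the promoters of Ldha and Bnip3.
Ldha, chr1:106507842-106508141, plus strand: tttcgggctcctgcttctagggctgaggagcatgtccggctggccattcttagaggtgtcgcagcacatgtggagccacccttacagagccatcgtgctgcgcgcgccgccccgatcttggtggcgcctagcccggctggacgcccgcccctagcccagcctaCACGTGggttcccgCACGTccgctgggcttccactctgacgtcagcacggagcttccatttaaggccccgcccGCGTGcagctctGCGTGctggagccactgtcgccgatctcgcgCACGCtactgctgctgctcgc
Pdk1, chr3:77113264-77113563, plus strand: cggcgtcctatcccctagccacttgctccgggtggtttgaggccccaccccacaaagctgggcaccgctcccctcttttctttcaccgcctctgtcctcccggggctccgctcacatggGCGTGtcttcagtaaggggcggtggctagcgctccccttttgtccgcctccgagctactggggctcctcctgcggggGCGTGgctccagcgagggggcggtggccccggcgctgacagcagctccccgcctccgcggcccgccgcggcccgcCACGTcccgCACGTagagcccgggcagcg
Bnip3, chr1:203154913-203155212, minus strand: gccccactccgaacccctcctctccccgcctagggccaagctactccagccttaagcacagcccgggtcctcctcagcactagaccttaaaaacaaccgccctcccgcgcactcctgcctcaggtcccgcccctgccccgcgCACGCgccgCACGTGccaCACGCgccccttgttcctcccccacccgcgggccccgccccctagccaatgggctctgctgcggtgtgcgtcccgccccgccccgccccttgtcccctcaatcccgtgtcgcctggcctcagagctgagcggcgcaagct
P4ha2, chr10:38743644-38743943, plus strand: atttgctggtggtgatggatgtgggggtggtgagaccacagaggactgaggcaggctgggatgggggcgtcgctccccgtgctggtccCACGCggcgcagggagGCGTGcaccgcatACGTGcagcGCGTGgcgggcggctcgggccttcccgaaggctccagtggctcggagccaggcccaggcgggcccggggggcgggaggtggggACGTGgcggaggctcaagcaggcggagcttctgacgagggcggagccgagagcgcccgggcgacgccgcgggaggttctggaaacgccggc
Aldoc, chr10:63715294-63715593, plus strand: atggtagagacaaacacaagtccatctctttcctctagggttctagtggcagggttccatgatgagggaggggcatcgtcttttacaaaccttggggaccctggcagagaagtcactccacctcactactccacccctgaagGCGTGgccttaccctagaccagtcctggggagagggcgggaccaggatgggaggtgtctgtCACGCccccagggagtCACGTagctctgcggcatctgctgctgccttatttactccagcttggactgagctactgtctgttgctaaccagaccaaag

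Ldha and P4ha2 held the motif at 5 places each, Pdk1 at 4, and Bnip3 and Aldoc at 3 each. The first 4 genes fell and Aldoc rose. Hk1, Pfkl, Pfkp, Gapdh, Pgam1, Slc2a1, P4ha1 and Egln1 also fell and held the motif, for Hk1 not in every promoter listed. Members that did not pass held it too: Gpi, Pfkm, Aldoa, Eno1, Eno2, Ldhb, Slc16a1, Pfkfb3, Ankrd37, Mxi1, Kdm3a and Hif1a. For Aldoa and Kdm3a it was not in every promoter listed. Pkm, Slc16a3 and Adm, which did not pass, and the untested Pfkfb4 held it at 0 places. The motif was thus not particular to members that changed. Among the members that rose, the motif was found in Aldoc only, as the promoter of Epas1 held it at 0 places. Pgk1, Slc2a3, Bnip3l and Ndrg1, which all fell, had no match among the promoter sequences used. RefSeq sequences matched 34 of the 38 members, with 40 promoters. Of these 26 (65%) held the motif, against 41.6% of all 33469 promoters of the same length. By role, 14 of 20 promoters of glycolytic enzymes and 7 of 12 of HIF targets outside glycolysis held it. The promoters listed for Hk2, Vegfa, Tpi1 and Egln3, which also fell, did not have these letters in this window. A match describes the sequence only and does not show binding.

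The glycolytic enzymes fell in 9 of 17 genes, 1 rose, and their median log2 fold change was -0.45. Among all tested genes 9.89% fell and 9.00% rose. Hexokinase traps glucose in the cell as glucose-6-phosphate. Its inducible form Hk2 (ENSRNOG00000006116; Rnor_6.0 chromosome 4, 113559427 to 113610243, minus strand) had 33.2, 37.3, 34.5 and 42.2 CPM in PAM 1 to 4, against 98.8, 76.0, 83.0 and 110.3 CPM in vehicle 1 to 4. All PAM libraries lay below all vehicle libraries, and the log2 fold change was -1.33 ± 0.15 (SE; Benjamini-Hochberg adjusted p = 8.66e-06 by edgeR). Hk1, the main hexokinase of brain, averaged 360 ± 44.5 CPM in PAM and 552 ± 35.1 CPM in vehicle libraries (SD, n = 4 each here and in what follows). Its log2 fold change was -0.62 ± 0.11. Summed per kilobase of exon, the hexokinase step stood at 141 ± 16.0 CPM per kb in PAM and 223 ± 15.3 CPM per kb in vehicle libraries.

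Phosphofructokinase commits sugar to glycolysis, and 2 of its 3 subunit genes fell. Pfkl, named for liver, averaged 298 ± 36.0 CPM with PAM and 433 ± 45.9 CPM with vehicle (log2 fold change -0.54 ± 0.11). Pfkp, named for platelets and abundant in brain, averaged 268 ± 25.9 CPM with PAM and 366 ± 24.3 CPM with vehicle (-0.45 ± 0.10). Both fell, with groups that did not overlap. Pfkm, the muscle subunit, did not pass: its 295 to 341 CPM in PAM libraries overlapped 304 to 332 CPM in vehicle libraries, and the 95% interval of its log2 fold change ran from -0.14 to 0.24. Gpi, which turns glucose-6-phosphate into fructose-6-phosphate ahead of this step, had 1284, 1222, 1805 and 1843 CPM in PAM 1 to 4, against 1710, 1993, 1998 and 2047 CPM in vehicle 1 to 4. PAM 1 and PAM 2 were the low ones, the groups overlapped, and the adjusted p of Gpi was 0.0815 by edgeR with Benjamini-Hochberg adjustment, which did not pass. Without PAM 3 and PAM 4 its log2 fold change was -0.62 in place of -0.33 and it passed, as it did without PAM 3 or without PAM 4 alone. The fit without both sets only 2 PAM against 4 vehicle libraries, here and for other genes. For Gpi it leaves out the highest PAM libraries, so it cannot decide whether Gpi fell.

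The aldolases cleave fructose bisphosphate; Aldoc rose and Aldoa did not pass. Aldoc, known as an astrocyte isoenzyme (ENSRNOG00000011452; Rnor_6.0 chromosome 10, 65586504 to 65590126, plus strand), had 1710, 1390, 1546 and 1444 CPM in PAM 1 to 4, against 1005, 1103, 1122 and 1037 CPM in vehicle 1 to 4. Every PAM library was above every vehicle library (log2 fold change 0.51 ± 0.10; Benjamini-Hochberg adjusted p = 0.00117 by edgeR). The astrocyte markers given above were also higher in PAM libraries, and their part in this result was not tested. Aldoa, the ubiquitous form, ranged over 2324 to 3737 CPM in PAM and 3500 to 4077 CPM in vehicle libraries and did not pass (log2 fold change -0.31 ± 0.13). It was at -0.60 and passed without PAM 3 and PAM 4, its highest PAM libraries, and it also passed without PAM 4 and with the length trend removed. Aldoc held 32.4% ± 5.42 of the aldolase level per kilobase in PAM libraries and 20.9% ± 0.431 in vehicle libraries.

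**Figure D2:**
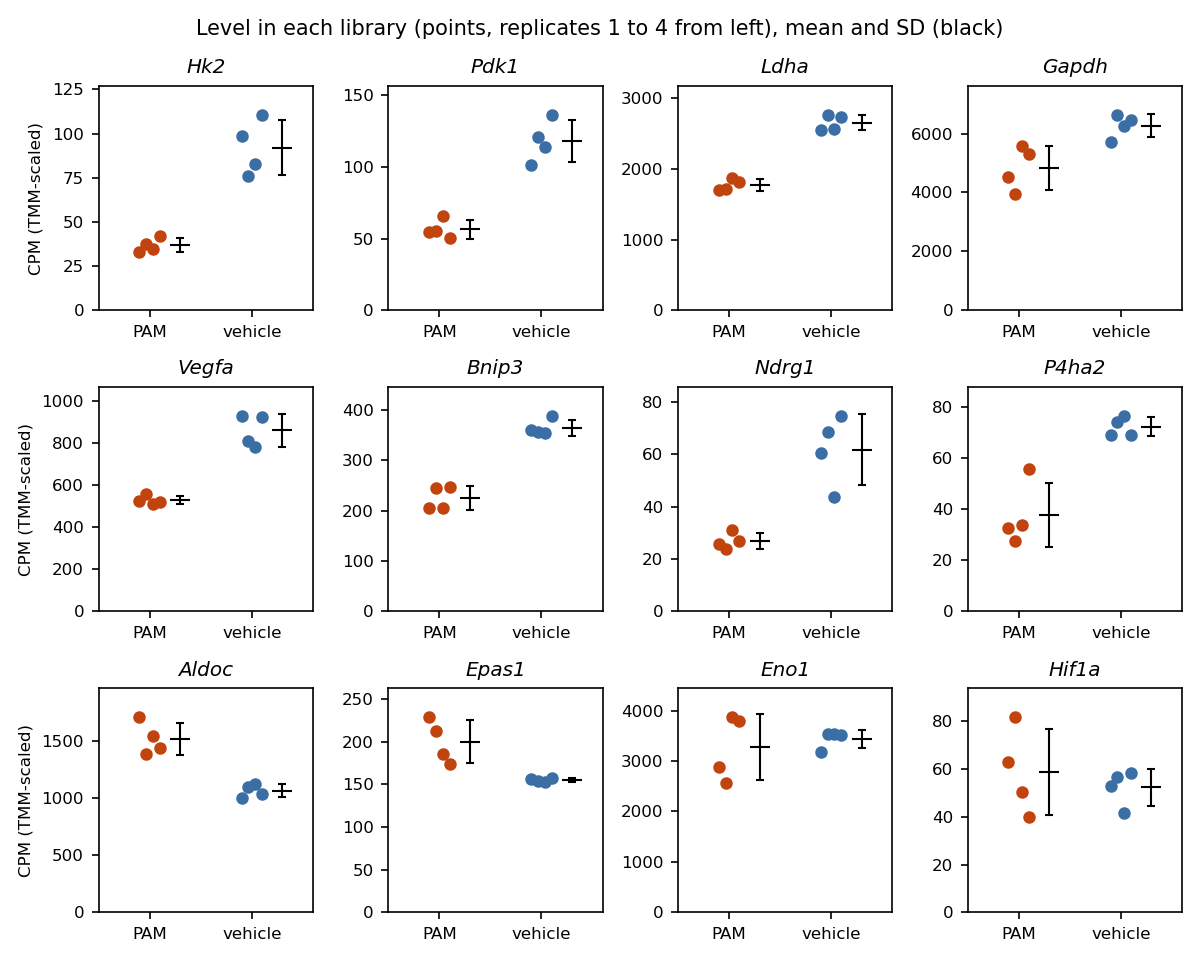
CPM of 12 members in each PAM and vehicle library, with each axis starting at 0; points are libraries, black marks the mean and SD of 4. The groups are apart for all panels other than Eno1 and Hif1a, in which they overlap. Among the panels with groups apart, only Aldoc and Epas1 are higher with PAM.

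Downstream of the aldolases, Gapdh, Pgk1 and Pgam1 fell. Gapdh, the oxidizing step and the most abundant member, had 4525, 3935, 5593 and 5290 CPM in PAM 1 to 4, against 5729, 6619, 6251 and 6450 CPM in vehicle 1 to 4. All PAM libraries were lower, and PAM 3 was the closest to the vehicle group. The log2 fold change of -0.37 ± 0.11 lost its call without PAM 1 or without vehicle 2, 3 or 4 (edgeR, Benjamini-Hochberg adjusted p up to 0.0954, against 0.0237 with all libraries). Pgk1, an ATP-yielding kinase, averaged 1400.2 ± 149 CPM with PAM and 1961 ± 68.5 CPM with vehicle. Pgam1, a phosphoglycerate mutase, averaged 1100.2 ± 75.0 CPM with PAM and 1530.3 ± 102 CPM with vehicle. Their log2 fold changes, -0.49 ± 0.10 and -0.48 ± 0.10, passed in every alternative fit.

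Enolase and pyruvate kinase did not pass. Eno1, the ubiquitous enolase, had 2874, 2556, 3867 and 3783 CPM in PAM 1 to 4, against 3174, 3526, 3536 and 3523 CPM in vehicle 1 to 4. PAM 1 and PAM 2 were below and PAM 3 and PAM 4 above all vehicle libraries, and the 95% interval of its log2 fold change ran from -0.31 to 0.17. Without PAM 3 and PAM 4 Eno1 passed at -0.33, but that fit leaves out the PAM libraries above the vehicle group. It therefore cannot decide whether Eno1 fell. Pkm, which makes pyruvate, averaged 1707 ± 196 CPM with PAM and 1983 ± 136 CPM with vehicle (log2 fold change -0.22 ± 0.10). It passed at -0.31 without PAM 3 and PAM 4, which were its highest PAM libraries too. Tpi1, the triose phosphate isomerase gene, and Eno2, the neuronal enolase gene, were counted at very low levels beside the other enzymes. Whether their transcripts were fully counted, given the annotation and the handling of multi-mapped reads, was not tested, so their levels, changes and ratios are uncertain. Tpi1 averaged 6.59 ± 2.13 CPM with PAM and 14.5 ± 2.42 CPM with vehicle and fell by 1.11 ± 0.30 on the log2 scale. That call was lost without vehicle 2 or without both PAM 3 and PAM 4. Eno2, whose groups did not overlap, averaged 5.65 ± 1.95 CPM with PAM and 10.6 ± 1.40 CPM with vehicle and did not pass. Among the members, Tpi1 alone shared exon bases with another gene, on the opposite strand, and it shared 1 base.

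Lactate dehydrogenase is built from Ldha, the form linked to lactate production, and Ldhb, linked to lactate use. Ldha (ENSRNOG00000013009; Rnor_6.0 chromosome 1, 102900286 to 102909707, plus strand) had 1700, 1712, 1874 and 1819 CPM in PAM 1 to 4, against 2551, 2756, 2564 and 2726 CPM in vehicle 1 to 4. The groups were far apart for the spread within them (log2 fold change -0.58 ± 0.09; Benjamini-Hochberg adjusted p = 0.000216 by edgeR). Ldhb averaged 567 ± 83.7 CPM with PAM and 497 ± 33.8 CPM with vehicle, with overlapping groups, and did not pass (0.19 ± 0.11). The share of Ldhb in the level per kilobase was 27.5% ± 2.32 in PAM libraries and 18.3% ± 1.28 in vehicle libraries. The sum of both was 1533 ± 106 CPM per kb with PAM and 2026 ± 66.7 CPM per kb with vehicle.

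Several enzyme genes have many near-copies that could take or lend reads. RefSeq (GRCr8) names 81 loci as pseudogenes of Gapdh, 31 of Eno1, 30 of Ldha, 19 of Pkm, 13 of Pgam1, 9 of Aldoa, 8 each of Pgk1 and Bnip3, 6 of Egln1 and 3 of Tpi1. How multi-mapped reads were counted is not given in the sources used here, so the absolute levels of these genes are uncertain.

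Within each library, ratios between 11 pairs of isoenzymes or partners were compared, which do not depend on library scaling. The log2 ratio of Aldoc to Aldoa, in counts per kilobase, was -1.07 ± 0.36 in PAM and -1.92 ± 0.04 in vehicle libraries. That of Ldhb to Ldha was -1.40 ± 0.17 with PAM and -2.16 ± 0.12 with vehicle. Pfkm against Pfkp stood at -0.11 ± 0.23 with PAM and -0.61 ± 0.12 with vehicle, and Bnip3l against Bnip3 at -1.80 ± 0.10 with PAM and -2.07 ± 0.04 with vehicle. These 4 ratios were higher in all PAM libraries than in any vehicle library, and Eno2 against Eno1, which rests on the low counts of Eno2, was lower in all. For these 5 pairs the two-sided exact permutation test gave p = 0.0286, the smallest that 70 splits allow. Adjusted over the 11 pairs (Benjamini-Hochberg) it was 0.0629 in the exact permutation test, so none passed. The other 6 pairs had overlapping groups.

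**Figure D3:**
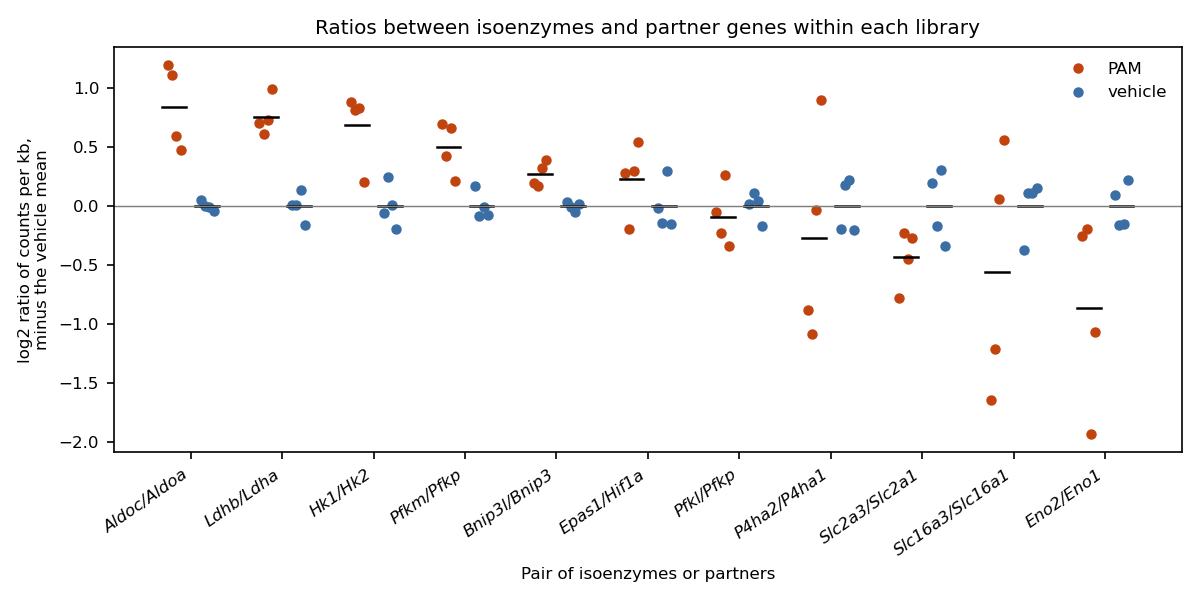
Log2 ratio of counts per kilobase between paired genes in each library, minus the vehicle mean of the pair; bars are group means. PAM points lie above all vehicle points for Aldoc/Aldoa, Ldhb/Ldha, Pfkm/Pfkp and Bnip3l/Bnip3 and below them for Eno2/Eno1.

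Carriers and regulators were lower where they passed. Of the 4 carriers, the glucose transporters Slc2a1 and Slc2a3 fell and 0 rose, also by DESeq2 and limma-voom. By edgeR 0 were higher at an unadjusted p under 0.05. Among all tested genes 9.89% fell. Slc2a1 (GLUT1), the transporter of astrocytes and vessels, had 302, 253, 341 and 296 CPM in PAM 1 to 4, against 355, 438, 401 and 409 CPM in vehicle 1 to 4. Its groups did not overlap (log2 fold change -0.43 ± 0.11), but it lost its call without vehicle 2 (edgeR, Benjamini-Hochberg adjusted p = 0.0581). Slc2a3 (GLUT3), the neuronal transporter, averaged 13.1 ± 2.01 CPM with PAM and 23.9 ± 4.26 CPM with vehicle (-0.88 ± 0.22). The lactate carrier gene Slc16a3 (MCT4) averaged 13.8 ± 3.20 CPM with PAM and 19.7 ± 1.44 CPM with vehicle and did not pass. It passed at -0.80 without PAM 3 and PAM 4, its highest PAM libraries, so that fit cannot decide whether Slc16a3 fell. Slc16a1 (MCT1), another lactate carrier, split the PAM libraries: PAM 1 to 4 had 81.8, 72.5, 40.5 and 28.8 CPM, against 63.7, 43.2, 51.3 and 45.6 CPM in vehicle 1 to 4. PAM 1 and PAM 2 were above and PAM 3 and PAM 4 below all vehicle libraries. Slc16a1 did not pass with all libraries and was higher with PAM, by 0.61 on the log2 scale, when PAM 3 and PAM 4 were left out (edgeR, Benjamini-Hochberg adjusted p = 0.00199). As these were the PAM libraries below the vehicle group, that fit cannot decide whether Slc16a1 rose.

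Pdk1 encodes a kinase that turns off pyruvate dehydrogenase, and it is a known HIF target. It had 54.4, 55.2, 65.7 and 50.5 CPM in PAM 1 to 4, against 101, 121, 114 and 136 CPM in vehicle 1 to 4. The PAM libraries were at about 0.48 of the vehicle level (log2 fold change -1.06 ± 0.13; Benjamini-Hochberg adjusted p = 1.77e-05 by edgeR). Pfkfb3, which makes an activator of phosphofructokinase, averaged 151 ± 18.4 CPM with PAM and 186 ± 18.2 CPM with vehicle. It did not pass at -0.30 ± 0.12, and passed without PAM 2, its highest PAM library (edgeR, Benjamini-Hochberg adjusted p = 0.0373). That fit cannot decide whether Pfkfb3 fell.

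The HIF targets outside glycolysis fell in 8 of 12 genes, against 9.89% of all tested genes. None rose: by edgeR 0 were higher at an unadjusted p under 0.05, and DESeq2 and limma-voom called 0 higher. Their median log2 fold change was -0.58. Vegfa, the angiogenic growth factor (ENSRNOG00000019598; Rnor_6.0 chromosome 9, 17340341 to 17355681, plus strand), had 526, 557, 512 and 518 CPM in PAM 1 to 4, against 928, 809, 781 and 925 CPM in vehicle 1 to 4. PAM libraries were tightly grouped and well below (log2 fold change -0.70 ± 0.10; Benjamini-Hochberg adjusted p = 6.86e-05 by edgeR). Ndrg1, a stress-responsive gene named for regulation by N-myc, showed the largest fall of this group. It had 25.6, 23.7, 30.9 and 27.0 CPM in PAM 1 to 4, against 60.4, 68.5, 43.5 and 74.4 CPM in vehicle 1 to 4. The groups did not overlap, vehicle 3 was the lowest of its group, and the log2 fold change was -1.21 ± 0.18.

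Bnip3 and Bnip3l encode related receptors for removal of mitochondria by autophagy. Bnip3 averaged 225 ± 23.3 CPM with PAM and 364 ± 15.4 CPM with vehicle (log2 fold change -0.69 ± 0.10). Bnip3l averaged 128 ± 17.9 CPM with PAM and 171 ± 9.94 CPM with vehicle (-0.42 ± 0.12), and lost its call without PAM 1 or without vehicle 4. Both fell, with groups apart. P4ha1 and P4ha2 encode catalytic subunits of collagen prolyl 4-hydroxylase. P4ha2 had 32.7, 27.7, 33.9 and 55.9 CPM in PAM 1 to 4, against 69.2, 74.3, 76.4 and 68.9 CPM in vehicle 1 to 4; PAM 4 was the highest of its group and still lower than all vehicle libraries (-0.96 ± 0.18). P4ha1 had 110.4, 108, 63.5 and 54.8 CPM in PAM 1 to 4, against 145, 120.3, 119.6 and 145 CPM in vehicle 1 to 4. Its fall of 0.64 ± 0.19 on the log2 scale was largest in PAM 3 and PAM 4; without both it was at -0.27 and did not pass, and it also lost its call without PAM 3 or without vehicle 1 or 4.

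The HIF prolyl hydroxylases Egln1 (PHD2) and Egln3 (PHD3), which both regulate HIF and are induced by it, fell. Egln1 averaged 51.9 ± 6.77 CPM with PAM and 81.8 ± 2.97 CPM with vehicle (log2 fold change -0.66 ± 0.13), and Egln3 averaged 83.3 ± 6.99 CPM with PAM and 119 ± 17.5 CPM with vehicle (-0.51 ± 0.13). For Egln3 the highest PAM library (92.0 CPM) and the lowest vehicle library (92.7 CPM) nearly met. The 4 targets that did not pass were Adm, Kdm3a, Mxi1 and Ankrd37. Adm, the vasodilator peptide adrenomedullin, averaged 45.7 ± 14.4 CPM with PAM and 61.7 ± 11.1 CPM with vehicle. It passed at -0.67 without PAM 4, at -0.63 without PAM 3 and PAM 4, and at -0.54 with the length trend removed. PAM 4 was its highest PAM library, at 66.3 CPM, so the fits without it cannot decide whether Adm fell. Kdm3a, a histone demethylase, averaged 50.8 ± 10.9 CPM with PAM and 61.3 ± 10.5 CPM with vehicle. Mxi1, an antagonist of Myc, averaged 95.9 ± 6.42 CPM with PAM and 92.9 ± 5.44 CPM with vehicle, with a 95% interval of the log2 fold change from -0.17 to 0.26. Ankrd37, an ankyrin-repeat protein, averaged 18.8 ± 7.14 CPM with PAM and 15.2 ± 2.82 CPM with vehicle.

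**Figure D4:**
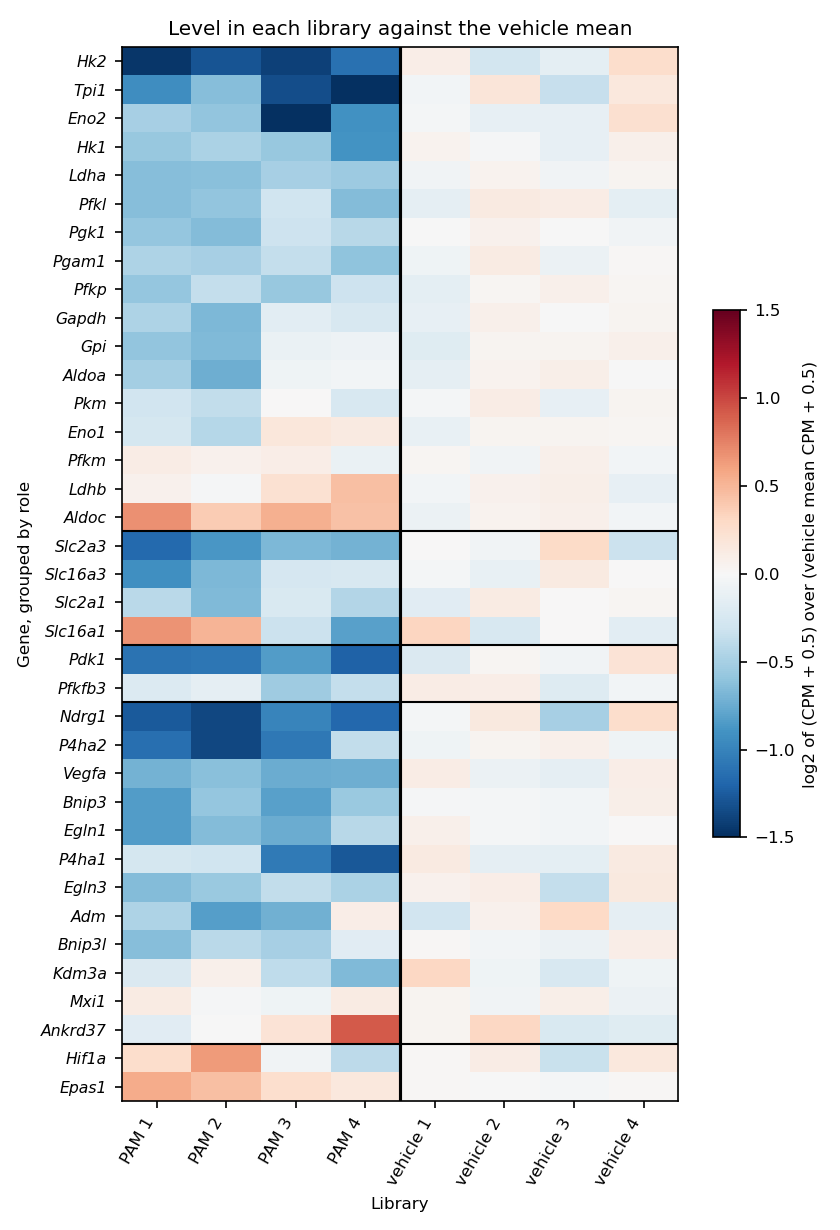
Level of the 37 tested members in each library, as log2 of (CPM + 0.5) over (vehicle mean + 0.5), PAM libraries on the left; black lines part the roles. Blue in all 4 PAM columns marks members such as Hk2, Pdk1 and Vegfa, while Slc16a1, Eno1 and Hif1a change colour between PAM 1 and 2 and PAM 3 and 4.

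Of the 2 HIF alpha subunit genes, 1 rose and the other did not pass. Epas1 (HIF-2 alpha), strong in endothelium and astrocytes, had 229, 213, 186 and 173 CPM in PAM 1 to 4, against 157, 154, 153 and 158 CPM in vehicle 1 to 4. All PAM libraries were higher (log2 fold change 0.37 ± 0.11; Benjamini-Hochberg adjusted p = 0.0239 by edgeR), but the call was lost without PAM 1 or without any single vehicle library (adjusted p up to 0.0897). Of the 10 endothelial and mural markers 2 had a row and 1 could be tested, with a sum of 8.49 to 16.8 CPM in PAM and 3.58 to 13.4 CPM in vehicle libraries. The astrocyte markers rose as given above, and the part of either cell type in the Epas1 result was not tested. Hif1a (HIF-1 alpha), whose activity is mainly set at the protein level, had 62.9, 81.5, 50.4 and 39.7 CPM in PAM 1 to 4, against 52.7, 56.7, 41.3 and 58.2 CPM in vehicle 1 to 4. The groups overlapped and it did not pass, with a 95% interval of the log2 fold change from -0.19 to 0.54. Without PAM 3 and PAM 4, its lowest PAM libraries, it was higher with PAM, by 0.48 on the log2 scale (edgeR, Benjamini-Hochberg adjusted p = 0.0185). That fit cannot decide whether Hif1a rose.

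Set side by side, HIF targets outside glycolysis fell in 66.7% and glycolytic enzymes in 52.9% of tested genes, with medians of -0.58 and -0.45. Among all tested genes 9.89% fell, and the median was 0.02. The 2 shares rest on few genes, 8 of 12 and 9 of 17. In each PAM library the median of the group against the vehicle mean was computed on log2 (CPM + 0.5). For the HIF targets it was -0.63, -0.56, -0.72 and -0.44 in PAM 1 to 4. For the enzymes it was -0.51, -0.59, -0.30 and -0.31. The HIF targets thus lay lower in PAM 1, 3 and 4 and the enzymes in PAM 2, and the difference of the medians was not tested. With the length trend removed the medians were -0.60 for HIF targets and -0.52 for enzymes. Aldoc was the enzyme that rose, and 0 of the HIF targets did.

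Of 24 tested genes of glycolysis, pyruvate and glycogen use other than the members, 2 fell (8.33%, against 9.89% of all tested genes) and 0 rose by edgeR, so the share that fell was not above that of all genes, and the median log2 fold change was -0.02. At an unadjusted p under 0.05 edgeR had 2 higher, and DESeq2 and limma-voom also called 0 higher. The 2 that fell were Gys1, glycogen synthase, at 171 ± 19.0 CPM with PAM and 264 ± 16.4 CPM with vehicle, and Pygl, a glycogen phosphorylase, at 10.2 ± 0.943 CPM with PAM and 19.9 ± 4.80 CPM with vehicle. Pygl lost its call without vehicle 2. The other glycogen phosphorylase genes of the list did not pass: the log2 fold change was -0.11 ± 0.24 for Pygb and -0.15 ± 0.26 for Pygm. Of 33 further genes of the HIF pathway, 6 fell (18.2%, against 9.89% of all tested genes) and 2 rose (6.06%, against 9.00%), with a median log2 fold change of -0.15. Bhlhe40, a transcriptional repressor induced by hypoxia, averaged 45.6 ± 8.31 CPM with PAM and 86.9 ± 9.95 CPM with vehicle (-0.92 ± 0.15). Ddit4, an inhibitor of mTORC1, fell by 0.51 ± 0.10 and Kdm4b, a histone demethylase, by 0.60 ± 0.12 on the log2 scale. Stc1, the hormone stanniocalcin, rose, averaging 32.9 ± 3.10 CPM with PAM and 15.2 ± 2.79 CPM with vehicle (1.11 ± 0.20). The VEGF receptor gene Kdr, named after its values were seen, also rose (0.93 ± 0.29), and lost its call without PAM 2 or without vehicle 2 or 3. Arnt2, a HIF beta subunit gene, fell (-0.41 ± 0.10) and lost its call with the length trend removed. The beta subunit gene Arnt did not pass (0.09 ± 0.44). Ero1a (-0.63 ± 0.21) and Higd1a (-0.38 ± 0.13) also fell, close to the threshold. Their Benjamini-Hochberg adjusted p by edgeR was 0.0435 for Ero1a and 0.0496 for Higd1a, whose groups overlapped. Neither was examined in the alternative fits. Arnt2, Arnt, Ero1a and Higd1a were likewise named after their values were seen.

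**Figure D5:**
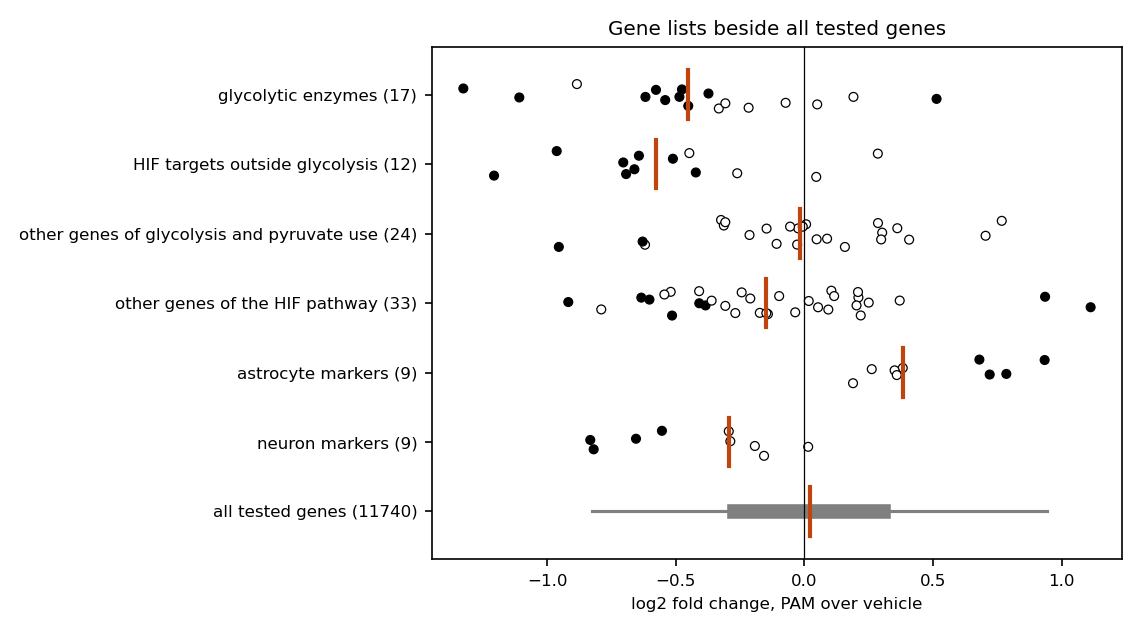
Log2 fold changes, PAM over vehicle, of genes in 6 lists (points, filled where edgeR's adjusted p was under 0.05) and of all 11740 tested genes (thick bar, middle 50%; thin bar, middle 90%); orange marks medians. The medians of the glycolytic enzymes (-0.45) and HIF targets (-0.58) lie left of that of all genes (0.02), as does that of neuron markers (-0.29), and astrocyte markers (0.38) lie to the right.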

How the data were processed

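Polyadenylated RNA from RNAiso Plus extracts was made into libraries using a Vazyme VAHTS V3 kit, as the labels' protocols state. The authors deposited whole-number counts per gene and library, in featureCounts layout with exon coordinates and lengths, per the file headers. The submitters' processing notes name STAR, featureCounts, DESeq2, DESeq and the build Rnor_6.0; strandedness is not given in the sources used here. Their comparison was deposited too, with signal values as group means, log2 fold changes and p-values, per the file headers; its symbols were used to find the genes.

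Counts were tested in R 4.3.3 with edgeR 4.0.16: filterByExpr, TMM scaling and the robust quasi-likelihood F test over all genes, with group as the only term and Benjamini-Hochberg adjustment. SEs were taken as the absolute log2 fold change over the root of F. CPM uses TMM-scaled library sizes. Members and lists were chosen with earlier results of these data known. All members are named, and up to 4 genes past the test, by smallest p, from each of the 2 lists of further pathway genes. Kdr, Arnt2, Arnt, Ero1a, Higd1a, Pygb and Pygm stand outside this rule and were named after their values were seen. Ratios add 0.5 to each count. The limit that 0 counts allow (3 counts) was 0.683 to 1.01 CPM by library, for counting error only. Alternatives were DESeq2 1.42.0, limma-voom (limma 3.58.1), RLE and upper-quartile scaling, 2 other filters, a replicate block, left-out libraries and removal of the length trend (loess, span 0.5); fits of further pathway genes under these were chosen after seeing the data. The fit was tested on simulated data. No pair of replicates matched within sampling noise (chi-square per degree of freedom 2.77 to 14.8). The PAM libraries differed more among themselves, at 4.36 (PAM 1 and PAM 2) to 14.8 (PAM 2 and PAM 4), than the vehicle libraries, at 2.77 to 4.11.

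Among the marker lists, 5 of 10 oligodendrocyte markers rose and 1 fell by edgeR and limma-voom, and 6 rose and 1 fell by DESeq2. Among all tested genes 9.00% rose and 9.89% fell by edgeR. By each tool, 5 of 5 ependymal and choroid plexus markers rose. For microglia 0 of 3 passed by edgeR, with 1 lower at an unadjusted p under 0.05, and DESeq2 and limma-voom also called 0. For the 1 tested endothelial or mural marker the count was 0 by each tool, also unadjusted.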

Additional observations from a re-analysis of the deposited data

Results flagged for a closer look

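In 3 of the 74 groups of 4 libraries examined among the tested members, 1 library stood far from the other 3, where chance gives about 1 in 20 groups. Gpi in vehicle 1 was at 1710 CPM, against 1993 to 2047 CPM in the other vehicle libraries. Eno1 in vehicle 1 was also low, at 3174 CPM, against 3523 to 3536 CPM. Pfkl in PAM 3 was high, at 351 CPM, against 275 to 287 CPM in the other PAM libraries.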

How the results depend on the processing

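Over the 17 alternative fits, 588 of 629 member values kept their direction and side of the threshold; 18 lost and 19 gained a call, and 4 turned direction without a call. The members that fell numbered 17 to 24, and the members that rose were 1 without PAM 1 or without any vehicle library (range 1 to 2 over single left-out libraries) and 4 with both PAM 3 and PAM 4 left out. The enzymes that fell numbered 7 to 12 and the HIF targets 6 to 9, with medians of -0.55 to -0.41 and -0.65 to -0.53. Values that turned were Slc16a1 at -0.084 without PAM 1, Eno1 at 0.028 and Hif1a at -0.024 without PAM 2, and Ankrd37 at -0.079 without PAM 3 and PAM 4; leaving out 1 library gave Slc16a1 up to 0.36, Eno1 down to -0.16 and Hif1a up to 0.32. The cause was not tested. Same-numbered libraries deviated together with correlations of only -0.06 to 0.07, so the numbers were not taken as pairs; with the replicate block 2064 genes changed, against 2218. Over all fits 1527 to 2900 genes changed. Gpi, Aldoa and Adm gained calls without a low-count filter, and Gpi with the replicate block, at -0.35. At 2960406 to 4389430 counts per library, Pfkfb4 (0 to 3 counts) could not be tested.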
